A study of Mus musculus with 2 samples.

Results

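The genes Zfp900 to Zfp999 are a numbered series of mouse zinc finger genes, most of which code for proteins with a KRAB domain and a row of zinc fingers. Members were chosen by name only: a protein-coding gene of the GENCODE M21 annotation whose symbol is Zfp followed by 3 digits of which the first is 9, with an entry in both count files. There were 63 such genes among 43629 genes in all. They were measured by poly-A RNA sequencing in mouse embryonic stem (ES) cells with a Drosha knockout, which are pluripotent and come from the blastocyst. Drosha is the nuclear ribonuclease that begins the processing of most microRNAs. The cells had the 129/Ola strain background, were at passage 7, grew in serum plus LIF (a cytokine that keeps mouse ES cells undifferentiated) and had no treatment. The group held 2 libraries, replicates A and B, and cells with intact Drosha were not analysed here, so no value below is an effect of the knockout. The titles number the cells of A and B differently while the source name is the same for both, so it is not known whether they came from separate lines or cultures, and every SD (n = 2) measures only the spread between these libraries, which may be technical.

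Zinc finger proteins of the KRAB family bind DNA through their fingers, each finger being a short loop held by a zinc ion between a pair of cysteines and a pair of histidines. The KRAB domain recruits the scaffold protein TRIM28 (also called KAP1), which brings in the histone methyltransferase SETDB1, heterochromatin proteins and histone deacetylases. In mouse ES cells this machinery is known for silencing endogenous retroviruses, and many of the genes lie in clusters of young, closely related copies that differ between mouse strains. Deletion of such clusters on chromosomes 2 and 4 has been reported to raise the expression of retroviral elements in ES cells.

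The shared building blocks can be read in the coding sequences of the GENCODE M21 transcripts (GRCm38). The KRAB core was searched as codons for phenylalanine, any pair of residues, glutamate or aspartate, glutamate, tryptophan, any pair, and leucine or methionine. It was found in the longest coding sequence of 57 of the 63 genes (90.5%), against 90 of 252 other Zfp genes with a 3-digit number (35.7%) and 1.33% of protein-coding genes with a coding sequence. The core is shown, with the codons of the fixed residues in capitals, for the genes with the highest and the second highest level, for the highest gene outside the chromosome 4 cluster (Zfp961) and for a chromosome 2 gene without reads (Zfp968).
Zfp990 codons 22 to 30: TTCtcactgGAGGAATGGgaatgtCTC
Zfp979 codons 37 to 45: TTCtcatcaGAGGAATGGgaatgtCTC
Zfp961 codons 34 to 42: TTTacccaaGAAGAGTGGactttgCTG
Zfp968 codons 32 to 40: TTCactcagGAAGAGTGGgctttgCTG

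The core lacked a match in Zfp948, Zfp952, Zfp956, Zfp957, Zfp972 and Zfp974. A finger was counted where a cysteine codon was followed after 2 to 4 residues by a second cysteine, after a further 12 by a histidine and after 3 to 5 by a second histidine. The members held a median of 11 fingers, from 0 in Zfp935, Zfp957 and Zfp972 to 21 in Zfp974. For the same 4 genes, the first finger with exactly 2 residues between the cysteines and 3 between the histidines is printed. The cysteine and histidine codons are in capitals, and the bases between them, which code for the DNA-contacting part, differ from gene to gene.
Zfp990 codons 242 to 262: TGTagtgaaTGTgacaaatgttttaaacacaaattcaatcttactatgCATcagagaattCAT
Zfp979 codons 287 to 307: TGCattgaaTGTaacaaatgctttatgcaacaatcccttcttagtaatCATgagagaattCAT
Zfp961 codons 146 to 166: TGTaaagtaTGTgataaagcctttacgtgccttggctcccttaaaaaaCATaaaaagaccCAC
Zfp968 codons 180 to 200: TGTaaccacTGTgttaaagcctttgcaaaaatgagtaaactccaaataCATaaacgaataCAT

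Levels are given as reads per library, as CPM (reads scaled to the size of the library, with TMM factors) and, wherever genes are compared with each other, as TPM (a level that also divides by exon length). The libraries held 29264632 reads on genes in A and 42322129 in B, and 3 counts, the most that a count of 0 allows, correspond to 0.102 CPM for A and 0.0711 CPM for B. Such limits cover counting error only. All 8 ES cell markers were above 1 CPM, the lowest at 136 TPM, while 2 of 8 feeder fibroblast markers and 3 of 8 lineage markers reached 1 CPM in both libraries. Drosha itself was covered by 4865 and 7023 reads in A and B (166 CPM ± 0.378, SD, n = 2), a count over the whole gene, which cannot check a deletion of part of it.

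Most Zfp900 to Zfp999 genes were transcribed at low to moderate levels. At least 1 CPM in both libraries was reached by 51 of 63 (81.0%), beside 217 of 252 other 3-digit Zfp genes (86.1%) and 58.0% of 21474 protein-coding genes. The median member had 7.19 TPM, against 6.03 TPM for the other Zfp genes and 2.74 TPM for protein-coding genes. The median of the members' mean CPM was 8.78 ± 0.130 (SD of the medians of the 2 libraries). No read fell on 5 members, 7 had fewer than 10 reads over both libraries, and 56 had at least 10.

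Levels differed between genomic clusters. Members within 1 Mb of the next were joined, which gave 5 clusters of 3 or more genes with 43 members, a pair on chromosome 13 and 18 single genes, on 12 chromosomes in all. The chromosome 4 cluster had a median of 30.6 TPM over 16 genes. The chromosome 7 cluster had a median of 13.8 TPM over 4 genes. The single genes had 7.51 TPM, the chromosome 17 cluster 6.08 TPM over 10 genes, the pair 3.54 TPM and the chromosome 8 cluster 2.15 TPM over 3 genes. The chromosome 2 cluster stood lowest at 0.0374 TPM over 10 genes. Of all reads on members, scaled to CPM, 64.1% fell in the chromosome 4 cluster (896 ± 26.5 of 1398 ± 39.9 CPM, SD, n = 2) and 0.947% in the chromosome 2 cluster. Clusters are groups of related genes and not replicates, so these medians are a description. The clusters also differed in how much of their sequence is found in no other gene's transcripts. The median share of such 50-base windows was 12.7% on chromosome 2 and 38.8% on chromosome 4. It was 82.0% in the chromosome 7 cluster, 92.2% in the chromosome 17 cluster and 97.7% in the chromosome 8 cluster. The part of this difference in the cluster levels was not tested.

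**Figure D1:**
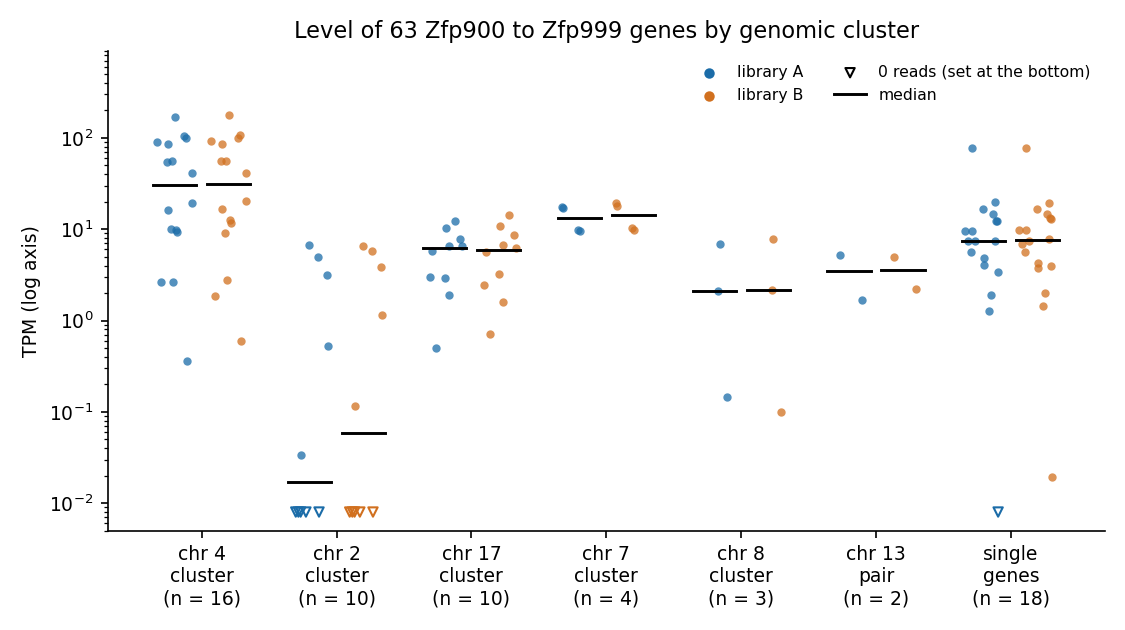
TPM (log axis) of each of the 63 genes in library A (blue) and library B (orange), grouped by genomic cluster, with black lines at the group medians and open triangles at the bottom for genes with 0 reads. The chromosome 4 genes have a median of 30.6 TPM and the chromosome 2 genes of 0.0374 TPM over both libraries, and outside the chromosome 2 cluster the medians of A and B lie close together.

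The chromosome 4 cluster (GRCm38, positions 145510759 to 147848366) held 9 of the 10 members with the highest TPM. Zfp990 (ENSMUSG00000078503, chromosome 4, 145510759 to 145539188, plus strand) was the highest of all members. Its reads numbered 6507 in A and 9890 in B, which gave 170 and 178 TPM (174 ± 5.20, SD, n = 2). This is at or above the level of 96.1% of protein-coding genes with a read. Zfp979 (ENSMUSG00000066000, 147611937 to 147642513, minus strand) followed with 4520 and 7007 reads and 104 ± 4.55 TPM, and Zfp978 (ENSMUSG00000078497, 147361303 to 147391004, plus strand) with 1468 and 2067 reads and 103 ± 2.48 TPM. The order of Zfp979 and Zfp978 was not settled, since Zfp978 was higher in A (104 against 101 TPM) and Zfp979 higher in B (107 against 101 TPM). Zfp979 and Zfp978 each held only 3 fingers in their longest annotated coding sequence, against 13 in Zfp990.

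By TPM, further members of the cluster formed a descending series. Zfp988 had 92.2 ± 1.35 TPM and Zfp985 had 85.4 ± 0.0716 TPM, and their values in A and B did not overlap. Zfp981 with 55.6 ± 0.495 TPM and Zfp984 with 54.8 ± 1.29 TPM could not be ordered, because their ranges overlapped. Zfp980 had 41.3 ± 0.232 TPM, Zfp987 had 19.9 ± 0.877 TPM and Zfp992 had 16.4 ± 0.0444 TPM. Zfp982, which has been reported to help maintain stem cell features in mouse ES cells, had 159 reads in A and 300 in B (11.2 ± 2.04 TPM). Zfp991 had 10.4 ± 1.66 TPM. At the lower end stood Zfp993 with 5 and 12 reads (0.475 ± 0.164 TPM), and, chosen here after their values were seen, Zfp989 with 9.52 TPM, Zfp933 with 2.68 TPM and Zfp986 with 41 and 42 reads (2.24 TPM). All 16 genes of the cluster had reads in both libraries, and 14 reached 1 CPM in both. Levels rose and fell along the chromosome. After Zfp981 (55.6 TPM), the 3 neighbours Zfp993, Zfp989 and Zfp991 had 0.475, 9.52 and 10.4 TPM. The next genes, Zfp988 and Zfp978, had 92.2 and 103 TPM, followed by Zfp982 (11.2 TPM) and Zfp985 (85.4 TPM). Few 50-base windows of Zfp993, Zfp989 and Zfp991 were found in no other gene's transcripts (13.2%, 32.1% and 17.8%). The same held for Zfp988 and Zfp978 (31.9% and 22.6%). The share was 28.7% in Zfp980, 11.0% in Zfp987 and 45.5% in Zfp984, and Zfp980 shared 58.6% of its windows with Rex2. The order given here is therefore one of TPM values and may not be that of the transcripts. Zfp986 (2.24 TPM) lies between Zfp980 (41.3 TPM) and Zfp987 (19.9 TPM). The span holds 22 protein-coding genes with a coding sequence, of which 21 have fingers or a KRAB core, and the 5 of these that are not members were all at 1 CPM or more in A and in B and had a median of 18.2 TPM.

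The chromosome 2 cluster (175372436 to 178078476) contained every member without a read. These were Zfp968 (ENSMUSG00000078898), Zfp965 (ENSMUSG00000078896), Zfp969 (ENSMUSG00000095545), Zfp966 (ENSMUSG00000089756) and Zfp967 (ENSMUSG00000095199), which follow each other from position 175372436 to 176532479. Next to them, Zfp973 had 1 read in A and 5 in B. The other end of the cluster had reads. Zfp970 (ENSMUSG00000078866, 177464733 to 177478129) had 160 and 228 reads (6.67 ± 0.105 TPM), Zfp931 had 126 and 210 reads (5.38 ± 0.511 TPM) and Zfp971 had 74 and 133 reads (3.53 ± 0.522 TPM). Zfp972, with 5 and 16 reads, lies between Zfp970 and Zfp971; it and Zfp973 were singled out after their values were seen. Thus 3 of 10 members reached 1 CPM in both libraries. The share of 50-base windows found in no other gene's transcripts was 50.3% in Zfp970, 76.7% in Zfp931, 48.9% in Zfp971 and 43.5% in Zfp972. In the 5 genes without reads it was at most 10.04%, and its part in these counts was not tested. Of the 33 finger or KRAB genes in the span, 24 were not members, and 11 of these 24 reached 1 CPM in both libraries while 6 had no reads.

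**Figure D2:**
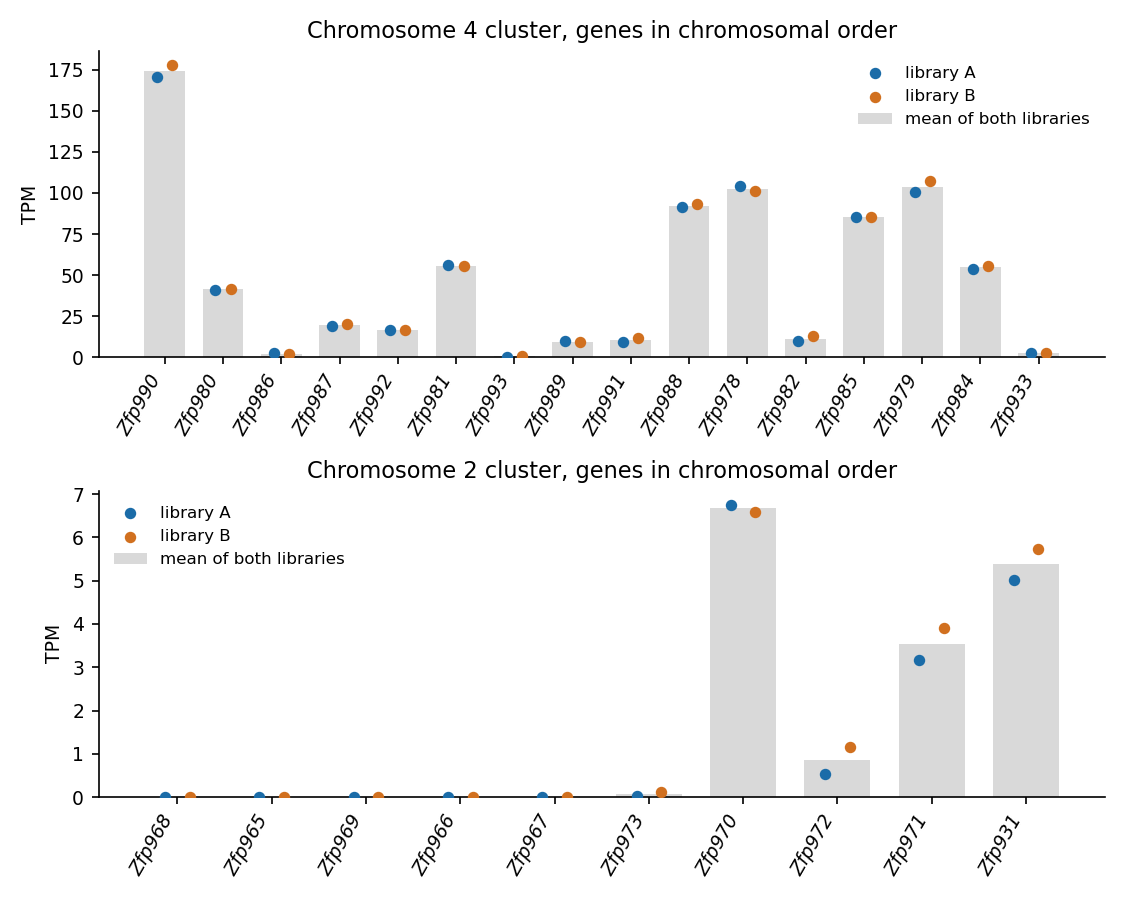
TPM of the genes of the chromosome 4 cluster (upper panel, scale to 178) and of the chromosome 2 cluster (lower panel, scale to 7) in chromosomal order, as bars for the mean of both libraries and points for library A (blue) and library B (orange). On chromosome 4, Zfp990 at the first end is highest with 174 TPM, and Zfp979 (104 TPM) stands between Zfp985 and Zfp984; on chromosome 2, the first 5 genes have 0 reads and Zfp970, Zfp971 and Zfp931 have between 3.53 and 6.67 TPM.

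The chromosome 17 cluster (21567008 to 22867134) was more even. Zfp944 was highest with 376 and 628 reads (13.3 ± 1.28 TPM), followed by Zfp948 with 10.7 ± 0.393 TPM and Zfp945 with 8.26 ± 0.546 TPM, and their ranges did not overlap. Zfp983 was lowest with 24 and 49 reads (0.606 ± 0.143 TPM) and was the only one of the 10 genes under 1 CPM in a library (0.818 CPM in A and 1.16 CPM in B). Zfp994 had 1.75 ± 0.224 TPM and Zfp947 had 2.71 ± 0.364 TPM. The remaining 4 genes lay between 3.07 TPM (Zfp943) and 6.69 TPM (Zfp946).

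All 4 genes of the chromosome 7 cluster (42579783 to 43192109) were transcribed, with means from 9.73 to 18.3 TPM. Zfp977 had 18.3 ± 1.22 TPM and Zfp936 had 17.5 ± 0.888 TPM, and these overlapped. Zfp975 had 10.1 ± 0.281 TPM and Zfp976 had 9.73 ± 0.235 TPM, which overlapped as well but lay below Zfp977 and Zfp936 in both libraries. In the chromosome 8 cluster (69209038 to 69749970), Zfp930 had 395 and 646 reads (7.36 ± 0.600 TPM), Zfp963 had 53 and 80 reads (2.15 ± 0.0537 TPM) and Zfp964 had 12 reads in each library (0.122 ± 0.0321 TPM). Exons of Gm20422 on the same strand cover 40.8% of Zfp963, so reads of these genes cannot be told apart there.

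Among the single genes, 17 of 18 reached 1 CPM in both libraries. Zfp961 (ENSMUSG00000052446, chromosome 8, 71951038 to 71993792, plus strand) ranked 6th of all members with 3711 and 5326 reads and 77.8 ± 0.829 TPM. It was followed by Zfp958 with 19.6 ± 0.218 TPM and Zfp960 with 16.7 ± 0.0226 TPM. Zfp932, a KRAB zinc finger gene reported to repress endogenous retroviruses in ES cells and named here for that reason, had 529 and 764 reads (14.7 ± 0.0917 TPM). Zfp937 had 148 and 190 reads (4.56 ± 0.407 TPM). The exception was Zfp957, with 0 reads in A and 1 in B, singled out after its value was seen. Apart from these 6, the single genes ranged from 1.36 TPM (Zfp950) to 12.8 TPM (Zfp954). Of the pair on chromosome 13, Zfp934 had 107 and 204 reads (1.96 ± 0.371 TPM). Its neighbour Zfp935 had 94 and 129 reads, but all of its exon sequence is also covered by exons of Gm49359 or Zfp934 on the same strand, so its level is uncertain.

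Near-identical copies limit what a read count can say about single members. For each gene, its transcripts were cut into all windows of 50 bases, and a window was called unique if no annotated transcript of another gene held it on either strand. The median unique share was 80.0% for the members, against 99.3% for the other 3-digit Zfp genes and 99.4% for protein-coding genes. At most 50% of windows were unique in 19 of 63 members but in 9 of 252 other Zfp genes. The sources used here do not say how reads that match several genes were counted. The 5 genes without reads had unique shares from 0% to 10.04%: every window of Zfp967 lies also in Zfp966, Zfp968 and Zfp969, and every window of Zfp969 also in Zfp968. The window below, bases 1350 to 1399 of the Zfp969 coding sequence, is the one held by the most genes. It spans the linker that joins neighbouring fingers (codons in capitals) and the start of the next finger, and lay in 44 genes: 8 members, all in the chromosome 2 cluster, and 36 others.
Zfp969: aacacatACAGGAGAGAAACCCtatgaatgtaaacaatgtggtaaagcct

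Members with few unique windows differed widely in reads. Zfp935, with no unique window, had 94 and 129 reads. It is a different case from copies at separate positions, since 99.2% of its windows lie in Gm49359, whose exons overlap it on the same strand. Gm49359 had no entry in the count files. The lowest unique shares on chromosome 4 were 11.0% to 17.8%. There, Zfp993 had 5 and 12 reads at 13.2%, Zfp986 had 41 and 42 at 13.6% and Zfp991 had 295 and 539 at 17.8%. Zfp987 had 639 and 991 reads at a unique share of 11.0%, Zfp978 had 1468 and 2067 at 22.6% and Zfp988 had 2790 and 4150 at 31.9%. Zfp987 shared 73.4% of its windows with Gm8935, which had 635 and 925 reads, and Zfp978 shared 51.2% with Zfp600, which had 963 and 1450. Zfp993 shared 81.9% with Zfp991. On chromosome 17, the single gene Zfp960 (unique share 17.3%) shared 81.4% with Zfp97, which had 558 and 916 reads. Of the closest relatives of the genes without reads, Zfp973, which holds 83.2% of the windows of Zfp965, had 1 and 5 reads. At the other end, low levels were also found where nearly all sequence is unique, as in Zfp964 (97.7%) and Zfp957 (99.8%). Across the 63 members, Spearman's rho between unique share and mean TPM was 0.14. It was 0.42 over the 47 members outside the chromosome 4 cluster and -0.11 over the 56 members with at least 10 reads. These members share libraries and sequence, and rho is given as a description.

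**Figure D3:**
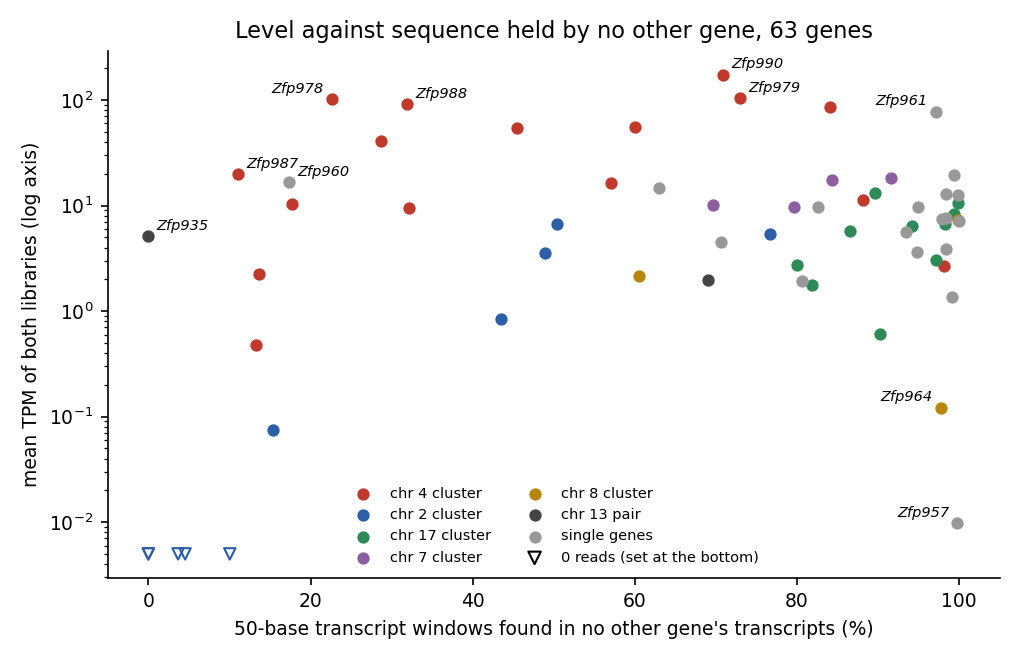
Mean TPM of both libraries (log axis) against the share of 50-base transcript windows found in no other gene's transcripts (%), 1 point per gene, coloured by cluster, with open triangles at the bottom for genes with 0 reads (2 of the 5 lie on top of each other at 0%). The chromosome 2 genes without reads all sit at 10.04% or less, while Zfp987 at 11.0% has 19.9 TPM and Zfp978 at 22.6% has 103 TPM.

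On an added scale, the CPM of all reads on a gene was divided by the kilobases of its unique windows in place of its exon length. This raises genes with few unique windows, and by too much if shared reads were counted. On the added scale, Zfp978 came first with 171 CPM per kilobase, then Zfp988 with 129, Zfp990 with 94.3, Zfp987 with 76.4 and Zfp980 with 59.8. Per kilobase of exon the same genes read 38.5 (Zfp978), 34.5 (Zfp988) and 65.2 (Zfp990). On either scale 9 of the 10 highest members lay in the chromosome 4 cluster, and the tenth was Zfp961 per exon length and Zfp960 per unique window. The chromosome 4 genes had a median unique share of 38.8%, against 86.6% for members outside the cluster. Dividing by unique windows thus tends to raise them, so the unique scale cannot check that ranking. The unique scale could not be given for Zfp935, Zfp967 and Zfp969, which have no unique window. The reference is the C57BL/6J strain while the cells were 129/Ola, and the part of strain differences in these counts was not tested.

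Promoter windows of 300 bases (250 before to 50 after the transcription start, RefSeq, GRCm38.p6) were matched for 49 of the 63 genes. They held a median of 7 CG dinucleotides, against 16 for the other 3-digit Zfp genes and 16 for all 14147 matched promoters, of which 96.8% held at least 1 CG. The median was 5 in the chromosome 2 cluster, 5 in the chromosome 4 cluster and 10.5 in the chromosome 17 cluster. On chromosome 4 this rests on 8 of the 16 genes, without Zfp990, Zfp978 and Zfp981, which had no matched promoter. Over the 49 genes, Spearman's rho between CG count and mean TPM was 0.05, again as a description. It was 0.33 over the 41 genes outside the chromosome 4 cluster and -0.17 over the 43 with at least 10 reads. The 250 bases before the start are printed, CG in capitals, for the second highest member, for the highest member outside chromosome 4, and for a gene with reads and a gene without reads of the chromosome 2 cluster.
Zfp979, chr4:147642509-147642758, minus strand: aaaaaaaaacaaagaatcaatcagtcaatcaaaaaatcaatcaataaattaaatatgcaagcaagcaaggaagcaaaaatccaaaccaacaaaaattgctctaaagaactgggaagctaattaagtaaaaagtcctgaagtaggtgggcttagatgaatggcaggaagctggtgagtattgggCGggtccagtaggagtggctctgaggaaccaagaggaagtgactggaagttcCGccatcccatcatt
Zfp961, chr8:71950816-71951065, plus strand: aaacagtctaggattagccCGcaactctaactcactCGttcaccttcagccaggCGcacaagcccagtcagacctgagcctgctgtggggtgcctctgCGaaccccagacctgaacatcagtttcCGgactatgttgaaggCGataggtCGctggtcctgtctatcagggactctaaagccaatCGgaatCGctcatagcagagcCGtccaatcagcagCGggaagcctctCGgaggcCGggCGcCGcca
Zfp970, chr2:177464492-177464741, plus strand: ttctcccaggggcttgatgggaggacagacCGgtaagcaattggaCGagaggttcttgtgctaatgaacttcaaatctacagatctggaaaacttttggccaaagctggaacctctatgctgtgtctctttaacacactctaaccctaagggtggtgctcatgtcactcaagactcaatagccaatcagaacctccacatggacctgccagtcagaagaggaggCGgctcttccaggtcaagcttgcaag
Zfp968, chr2:175372186-175372435, plus strand: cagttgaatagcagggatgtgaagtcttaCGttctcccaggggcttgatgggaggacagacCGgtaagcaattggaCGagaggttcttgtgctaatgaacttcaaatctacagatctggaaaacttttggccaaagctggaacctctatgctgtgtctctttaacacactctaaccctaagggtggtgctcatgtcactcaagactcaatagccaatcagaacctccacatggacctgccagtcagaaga

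These windows hold 15 CG in Zfp961, 2 in Zfp979 and 3 each in Zfp970 and Zfp968. The 300-base windows were aligned with no penalty for unaligned ends, and identity was taken over aligned bases only. Zfp968 (0 reads) and Zfp970 (160 and 228 reads) were identical at 267 of 269 aligned bases (99.3%). Zfp966 and Zfp967, both without reads, were identical at 300 of 300. Over the 36 pairs among the 9 matched chromosome 2 promoters, identity ran from 80.9% to 100%, with a median of 97.6%. The pairs of 2 genes without reads had 99.6% to 100%. Pairs of a gene without reads and a gene with reads had 80.9% to 100%, and pairs of 2 genes with reads had 81.6% to 98.9%. The 100% here was Zfp965 with Zfp973, which had only 1 and 5 reads. The 80.9% and the 81.6% both came from pairs with Zfp972 (5 and 16 reads).

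Transcripts of the repression machinery that KRAB zinc finger proteins call on were found throughout, while its proteins were not measured. All 18 genes of the list fixed for it were above 1 CPM in A and in B, beside 58.0% of protein-coding genes. The median of the 18 was 83.4 TPM. Trim28, the scaffold that binds the KRAB domain, had 1263 ± 45.0 TPM. Next came Uhrf1, which helps to maintain DNA methylation, with 250.1 ± 5.33 TPM, and the heterochromatin protein gene Cbx5 with 225 ± 1.64 TPM. Chd4, the remodelling subunit of the NuRD complex, had 187 ± 0.285 TPM and Cbx1, a further heterochromatin protein gene, had 181 ± 6.06 TPM. Chd3, another remodelling subunit, was lowest with 3.38 ± 0.146 TPM.

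Libraries A and B gave close values for the members. A two-sided exact binomial test of each gene's reads, with Benjamini-Hochberg adjustment over 18198 genes with at least 10 reads, compares these libraries and not conditions, and its p-values cover counting error only. It called 417 genes (2.29% of those tested), 237 higher in B (1.30%) and 180 higher in A (0.989%), and 0.0879% were called with at least a 2-fold difference. Of the 56 members tested, 3 were called, all higher in B, all in the chromosome 4 cluster and none by 2-fold. Zfp979 was 0.11 higher in B on the log2 scale (154 CPM in A, 166 CPM in B, adjusted p = 0.00812), Zfp990 was 0.08 higher (222 and 234 CPM, adjusted p = 0.0334) and Zfp991 was 0.34 higher (10.1 and 12.8 CPM, adjusted p = 0.0435). An unadjusted p under 0.05 was found in 8 of the 56, beside 12.4% of all genes tested. The largest ratios among members with at least 100 reads were not called. Toward B these were Zfp934 (log2 ratio 0.40) and Zfp982 (0.39), beside the called Zfp991. Toward A they were Zfp947 (log2 ratio -0.26), Zfp994 (-0.24) and Zfp937 (-0.17). For 48 of the 56 members the libraries were within 1.25-fold of each other.

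Of the 56 members, 40 were higher in B, beside 49.7% of all genes tested, and their median log2 ratio was 0.07 against a median of -0.00084 over all genes tested. Base composition moved with this ratio. The members' exons had a median GC content of 38.6%, against 48.7% for protein-coding genes. Over all genes tested, the fifth with the lowest GC had a median log2 ratio of 0.04 and the fifth with the highest GC of -0.06. With the trend over GC content removed, the same binomial test called 140 genes (0.769%) and no member. An unadjusted p under 0.05 was then found in 4 of 56 members and in 8.68% of all genes. The log2 ratio of Zfp991 was then 0.30, that of Zfp979 was 0.06 and that of Zfp990 was 0.03. In that setting 34 of 56 members were higher in B, beside 49.8% of all genes, and the members' median ratio was 0.03. With a coefficient of variation of 0.1 between libraries taken as given, the edgeR exact test called 1 gene of all those tested (0.00550%) and no member. No member had an unadjusted p under 0.05 there, beside 1.18% of all genes. Feeder fibroblast markers also differed: 4 of 8 were called higher in A, with log2 ratios from -2.24 to -1.60. The 8 summed to 51.2 CPM in A and 47.1 CPM in B, and without Thy1, which was not called, the other 7 summed to 8.25 and 3.48 CPM. Of the ES cell markers, 2 of 8 were called, both higher in B: Dppa5a (log2 ratio 0.07) and Tdgf1 (0.05). No lineage marker was called. The part of these marker differences in the members' ratios was not tested. In the list for the repression machinery, Cbx1 was called higher in B (log2 ratio 0.09) and Trim28 higher in A (-0.05), 2 of 18 genes.

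**Figure D4:**
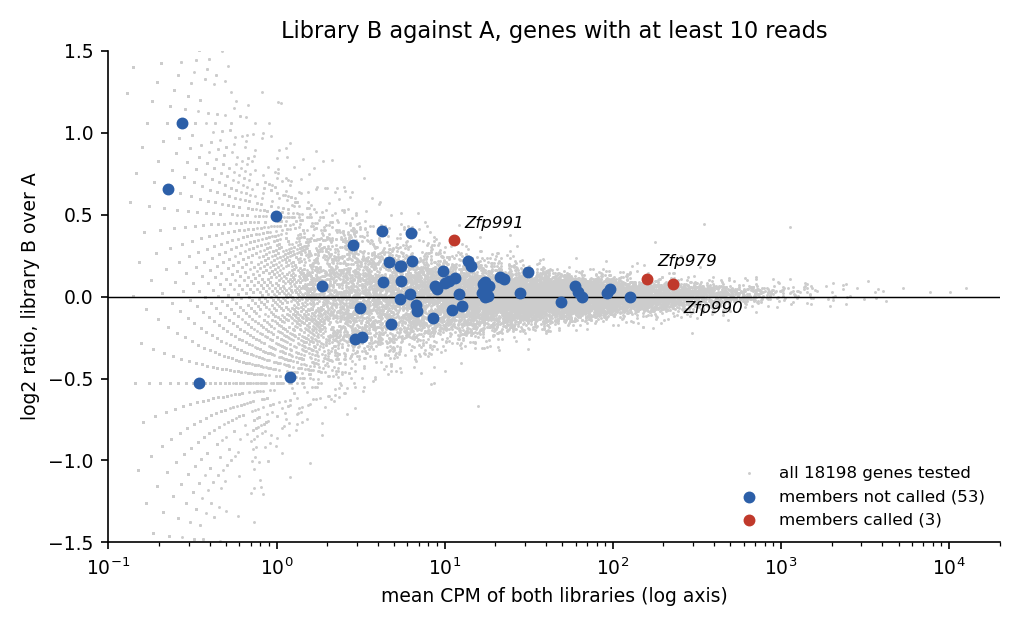
Log2 ratio of library B over A against mean CPM (log axis) for the 18198 genes tested (grey; 170 genes lie outside the plotted range of 1.5 either way), with the 53 members not called in blue and the 3 called in red. The called members Zfp979, Zfp990 and Zfp991 all lie above 0, and the spread of all genes widens toward low counts.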

How the data were processed

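The authors deposited raw read counts per Ensembl gene for each library. The submitters' processing notes name STAR 2.4.2a, featureCounts 1.4.5-p1 and mm10 without roles; per the labels' protocols the TruSeq libraries were reverse-stranded. The sources used here do not give the strand setting, annotation release or handling of multiply matching reads. The members and gene lists were chosen with earlier results of these data known.

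Counts were scaled by TMM factors (edgeR 4.0.16, R 4.3.3; genes with at least 10 reads). TPM used GENCODE M21 exon lengths. A two-sided exact binomial test (scipy 1.17.1, Benjamini-Hochberg, threshold 0.05) compared the libraries because 1 group of 2 leaves no residual freedom for a contrast. It was tested on simulated counts with counting error only and 2-fold changes, which cannot check the smaller differences called in members. Windows were compared with transcripts and not with a genome, and coding features were read from coding sequences in place of RefSeq proteins, which were not used here, so protein identity was not computed. Text names called members, the 15 highest by TPM, the 3 highest and the lowest of each cluster, all members without reads, the 3 largest ratios each way, Drosha and the 5 highest machinery genes; others are said to be chosen otherwise. Alternatives were other scalings (DESeq2 1.42.0 among them), filters, thresholds, window lengths, cluster gaps and single libraries.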

Additional observations from a re-analysis of the deposited data

How the results depend on the processing

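The median of the members' mean CPM was 8.79 to 8.98 with either library left out, and 10.3 over members with at least 10 reads. The 3 calls between libraries (Zfp979, Zfp990, Zfp991) became 1 (Zfp979) under scaling by total counts, where all genes split into 180 higher in B and 242 higher in A, and 0 under the edgeR exact test at a coefficient of variation of 0.1 (1 gene called in all) or with the GC trend removed (140 called in all). The calls were 2 to 3 under other read filters and DESeq2 size factors, and 3 with TMM factors over all genes, a setting chosen after seeing the data, which called 463 genes. Total counts shifted all log2 ratios by -0.0073. With windows of 100 bases the median unique share was 94.6%. The number of members at 1 CPM was 42 at a threshold of 5 CPM and 53 at 0.5 CPM, and there were 6 clusters at a gap of 0.5 Mb and 5 at 2 Mb. Of 78 levels of named members under other scalings, none moved by more than 0.0896%. This was largely fixed in advance. Each level is a mean over both libraries, in which opposite shifts of A and B cancel, and members with 0 reads cannot move. CPM per kilobase of unique windows was also added after seeing the data. Windows over the whole genome were not run. No paired analysis was possible because the libraries form 1 group. Levels of genes with few unique windows, and differences from cells with intact Drosha, cannot be read from these counts.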
